A study of Mus musculus with 6 samples.

Results

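The Ly6 family encodes small cell-surface proteins that share a domain folded by disulphide bonds into finger-like loops, most of them held in the membrane by a glycosylphosphatidylinositol (GPI) lipid anchor. Its best known member, Ly6a, encodes Sca-1, the surface antigen that is used to sort progenitor cells from mouse bone marrow, mammary gland and prostate. The genes described are Ly6a, Ly6c1, Ly6d, Ly6e, Ly6g6c, Ly6h, Ly6i, Ly6k, Lypd3 and Psca, taken as all probes that the array design names for them. They are 10 of 36282 named genes and 12 of 55681 probes. All 10 genes had at least 1 tested probe, and 11 of the 12 probes were tested.

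RNA came from the prostates of untreated 6-day-old male FVB/N mice, and all animals carried the Tg 11.5kb-GFP transgene, in which an 11.5 kb promoter of s-SHIP, a short form of the SHIP1 phosphatase, drives GFP. Cells lacking the lineage antigens Ter119, CD31 and CD45 and bearing Sca-1 and CD49f (LSC cells, the basal and stem cell fraction of prostate epithelium) were sorted into LSC GFP+ and LSC GFP- cells, with 3 samples of each. Amplified RNA was hybridised to 6 one-colour arrays. The number of arrays limits the precision. The labels call the samples independent but do not tie them to animals, so p-values measure the spread between these samples. As these are bulk samples, fewer cells of a type and less RNA per cell cannot be told apart.

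Both populations were gated as positive for the Sca-1 protein, the product of Ly6a, and the part of this gate in the Ly6a levels was not tested. Ly6a transcripts were well above background on all 6 arrays, with processed signals from 1299.8 to 4924. The other gate genes were Itga6, which encodes CD49f and was at 0.25 log2 units more in LSC GFP+ cells (SE 0.22), and, for the lineage gate, Ptprc (CD45, difference -0.05) and Pecam1 (CD31, difference -0.55), none of which passed the test. At an unadjusted limma p under 0.05, which 7.67% of all genes reached, 4 of the 7 basal markers were higher in LSC GFP+ cells. Trp63 was not among them at its brightest probe (difference 0.11). Its other tested probes disagreed, at 0.62, which passed, and -0.73, which did not. Of the 7 stromal markers, 5 were lower and 1 (Dcn) was higher, and 5 of 5 smooth muscle markers were lower. Of the 6 luminal markers, 2 were lower, Cldn3 (-0.76) and Prom1 (-0.53). Cldn4 went the other way, at 0.53 at its brightest probe, which did not pass, and at 0.67 at its other probe, which did. None of the 4 endothelial or 5 immune markers tested passed.

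Of the 10 genes, 8 lie within 849 kb of chromosome 15, while Lypd3 is on chromosome 7 and Ly6g6c on chromosome 17. Each gene was read through 1 or 2 probes of 60 bases, placed by the array design on the mm9 build within the transcript of the gene. The first 30 bases of the Ly6a probe and of both Ly6c1 probes are printed because the Ly6c1 3′ probe followed Ly6a across the samples and the 5′ probe did not, and those of the brighter Ly6h probe because that gene passed the test. The Ly6a probe is at chr15:74825553-74825612, the Ly6c1 probes at chr15:74875495-74875554 (nearer the 3′ end) and chr15:74877785-74877844 (nearer the 5′ end), and the Ly6h probe at chr15:75395175-75395234, all on the minus strand.
Ly6a: tatgagttatagaagctccaaggtgggagt
Ly6c1, 3′ probe: tattatagtatcaccatccacacataagta
Ly6c1, 5′ probe: agcagttacctgccgcgcctctgatggatt
Ly6h: caacagcctggcctgaggggcattaactac

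The Psca probe (chr15:74546879-74546938, plus strand) and the Ly6k probe (chr15:74627529-74627588, minus strand) are printed whole, because they read through the part of the transcript that encodes the end of the Ly6 domain.
Psca: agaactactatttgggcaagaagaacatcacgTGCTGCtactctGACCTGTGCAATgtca
Ly6k: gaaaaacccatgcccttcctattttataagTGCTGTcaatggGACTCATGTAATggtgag

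The capitals mark a pair of adjacent cysteine codons (TGC or TGT) and, after 2 other codons, codons for aspartate, any residue, cysteine and asparagine, the residues that close the domain. With 1 to 4 codons allowed between both parts, read on the printed strand only, this pattern was found in 7 of 55681 probes (0.0126%). They include the probes of Ly6k, Psca, Ly6g and Ly6g5c. The others are named D730048I06Rik, ENSMUST00000089689 and Csnk1a1, and Csnk1a1 is not a Ly6 family gene, so the pattern alone does not identify the domain. In the other member probes the pattern does not occur. The probe of Ly6a shared no run of 15 bases with any other probe on the array, and its longest run in common with the Ly6c1 3′ probe was 6 bases.

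Levels are given as log2 of the processed signal minus the 75th percentile of the array, so 0 is the level that 75% of probes on that array do not exceed. They are compared within a probe and not between genes. A gene counted as passing at an unadjusted p under 0.05 by limma, at its brightest tested probe. Of all 25608 genes, 7.67% passed, 3.38% higher and 4.29% lower in LSC GFP+ cells, and none had an adjusted p under 0.05. Of the 10 Ly6 genes, 2 passed, Ly6k higher and Ly6h lower, a count against which that background of 7.67% has to be read. The median difference over the 10 genes was -0.14, against -0.01 over all genes. The methods' t-test passed 0 of the 10. With the 3 arrays of each group fully apart in 11.9% of all genes, the same held for 1 of the 10, Ly6k.

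**Figure D1:**
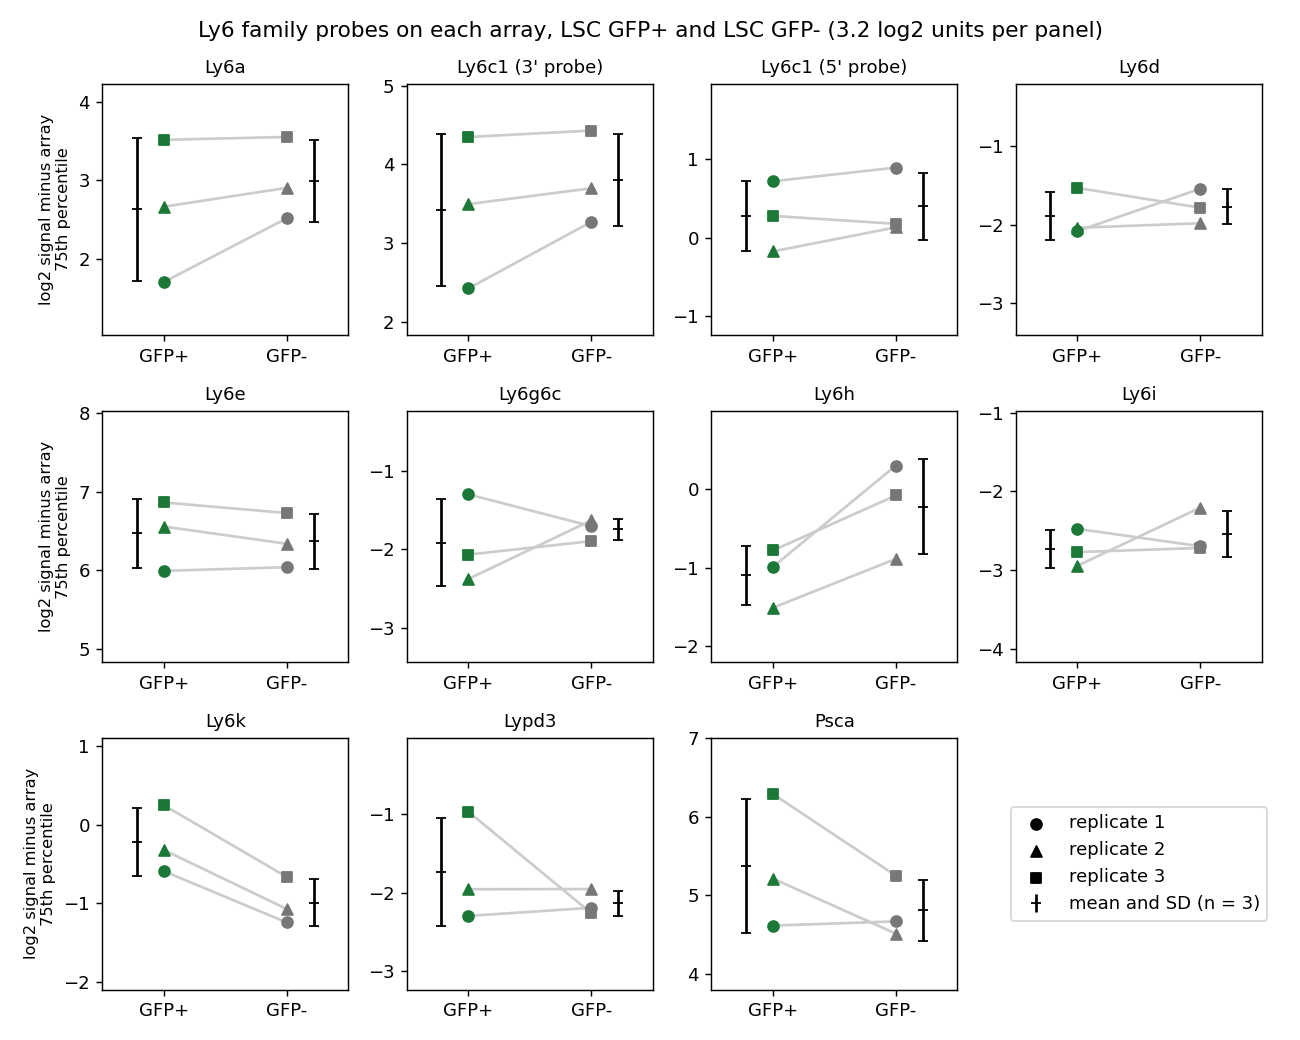
Level of each tested Ly6 family probe (log2 processed signal minus the 75th percentile of the array, the same span in every panel) in LSC GFP+ (green) and LSC GFP- (grey) samples; symbols give the replicate, lines join equal replicate numbers, and bars give mean and SD of 3 samples. The groups are apart for Ly6k only, and Ly6a and the Ly6c1 3′ probe rank the samples alike.

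Ly6k encodes a GPI-anchored protein known from testis, where it takes part in sperm migration, and from squamous tumours. Its levels were -0.59, -0.32 and 0.25 in LSC GFP+ replicates 1, 2 and 3, and -1.24, -1.07 and -0.66 in LSC GFP- replicates 1, 2 and 3. The lowest LSC GFP+ sample was above the highest LSC GFP- sample, and the difference had the same sign in each of the 3 replicate pairs (0.65, 0.75 and 0.91). Ly6k was 1.71-fold higher in LSC GFP+ cells, a log2 difference of 0.77 (SE 0.28, 95% confidence interval 0.13 to 1.41, adjusted p = 0.48). It no longer passed by the methods' t-test, nor when LSC GFP- replicate 1 (difference 0.65) or replicate 2 (0.73) or LSC GFP+ replicate 3 (0.54) was left out.

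Across the 6 arrays, the genes with the pattern most like Ly6k were Slc6a14, an amino acid transporter (Pearson r 0.987), Supt3, a subunit of a transcription coactivator complex (0.969), and Dyrk3, a protein kinase (0.967), out of 3445 genes that varied enough to be compared. Among markers looked at after the values were known, Ly6k followed the basal keratins Krt15 (r 0.966), Krt5 (0.926) and Krt14 (0.906) and the stratified epithelium keratin Krt13 (0.955), while r was lower for the other basal markers Col17a1 (0.506), Itgb4 (0.286), Trp63 (0.11) and Dst (-0.191). The median r with Ly6k was 0.506 over the 7 basal markers and 0.292 over the 11 markers of stratified and urothelial differentiation, from which Krt13 comes and which ran from -0.507 to 0.955. The summed level of the 7 basal markers, on the linear scale in multiples of the 75th percentile, was 213 to 232 in LSC GFP+ and 158 to 171 in LSC GFP- samples. Trp63, which did not pass, had the largest part in each sum, at log2 levels of 6.62 to 6.84 in LSC GFP+ and 6.54 to 6.66 in LSC GFP- samples. Each of the 7 was well above background on all arrays. Each r with Ly6k is taken at the brightest tested probe of a gene and includes the difference between the populations. The share of all genes with such r was not determined. The part of these genes in the Ly6k difference was not tested.

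Ly6h, known from brain as a modulator of nicotinic acetylcholine receptors, was read by a pair of probes. At the brighter one its levels were -0.99, -1.51 and -0.78 in LSC GFP+ replicates 1, 2 and 3, and 0.30, -0.89 and -0.08 in LSC GFP- replicates 1, 2 and 3. The groups overlapped, since LSC GFP- replicate 2 was below LSC GFP+ replicate 3, while the LSC GFP+ sample was the lower one in each replicate pair. Ly6h was 1.83-fold lower in LSC GFP+ cells, a log2 difference of -0.87 (SE 0.34, 95% confidence interval -1.66 to -0.08, adjusted p = 0.553). On no array was the other probe, 493 bases away, well above background, and it was not tested. The gene no longer passed with scaling by the median (-0.80), by the methods' t-test, or when replicate 1 (-0.92) or 2 (-0.66) of LSC GFP+ cells or replicate 1 (-0.61) or 3 (-0.80) of LSC GFP- cells was left out.

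The genes most like Ly6h across the 6 arrays were Zeb1, a repressor of epithelial genes (r 0.988), Cavin3, a component of caveolae (0.986), and Cygb, which encodes cytoglobin (0.984). The smooth muscle markers and all stromal markers but Dcn moved with Ly6h over the 6 arrays. Each r includes the difference between the populations, and the share of all genes with such r was not determined. In a comparison made after the values were known, r with Ly6h was 0.856 to 0.945 for 6 of the 7 stromal markers and -0.434 for Dcn, and 0.73 to 0.946 for the 5 smooth muscle markers. The summed stromal level was 18.1, 19.4 and 24.5 in LSC GFP+ and 58.3, 20.8 and 34.3 in LSC GFP- replicates 1, 2 and 3. The order of the LSC GFP- samples was the same as for Ly6h, and that of the LSC GFP+ samples was not. Dcn, the marker that went the other way, had the largest part in each LSC GFP+ sum. Its log2 levels were 3.37, 3.76 and 3.97 in LSC GFP+ and 2.77, 2.02 and 2.74 in LSC GFP- replicates 1, 2 and 3. Smooth muscle sums were 5.93 to 9.54 in LSC GFP+ and 18.5 to 35.7 in LSC GFP- samples. All 12 of these markers were tested, and 11 of them were well above background on all arrays. Their part in the Ly6h difference was not tested.

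**Figure D2:**
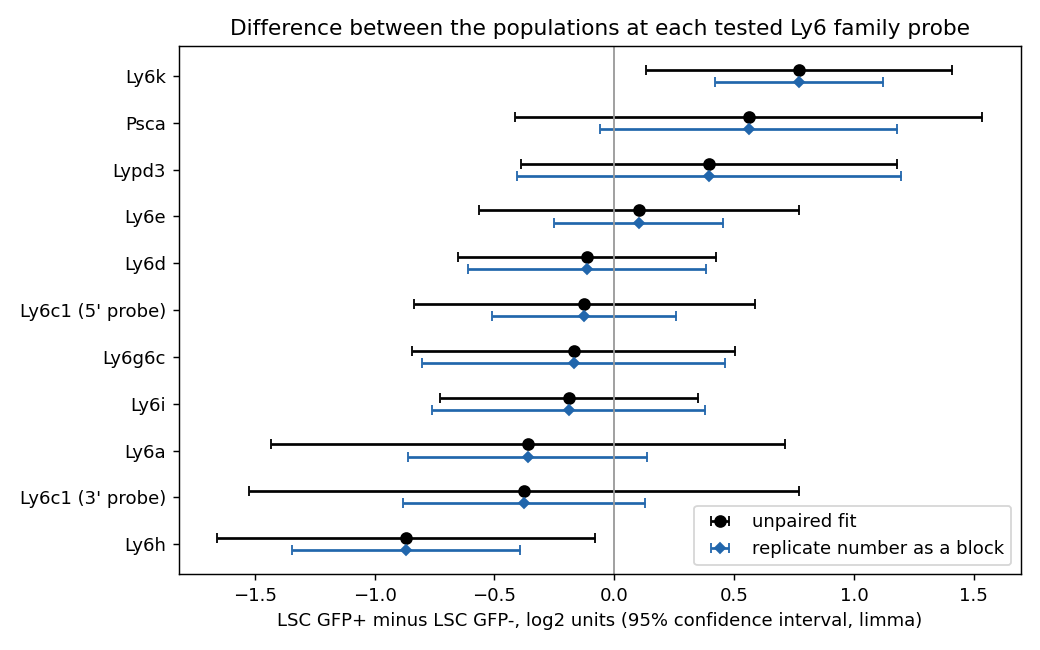
LSC GFP+ minus LSC GFP- difference of each tested Ly6 family probe (log2 units, points) with its 95% confidence interval from limma, without the replicate number (black) and with it as a block (blue). The intervals of Ly6k (0.77) and Ly6h (-0.87) exclude 0 in both fits and those of the other 9 probes include it.

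Ly6a itself had levels of 1.71, 2.66 and 3.51 in LSC GFP+ replicates 1, 2 and 3, and 2.52, 2.90 and 3.55 in LSC GFP- replicates 1, 2 and 3. The populations overlapped, and the spread within each was larger than the difference between them. The difference was -0.36 (SE 0.46, 95% confidence interval -1.43 to 0.71, adjusted p = 0.996). It was -0.81, -0.24 and -0.04 in replicate pairs 1, 2 and 3, and 0.10 without LSC GFP+ replicate 1. The interval holds differences in either direction, so equal Sca-1 transcript levels were not shown.

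Ly6c1, a marker of monocytes and of some endothelial cells, gave the same picture at its 3′ probe. Its levels there were 2.42, 3.50 and 4.35 in LSC GFP+ and 3.27, 3.70 and 4.43 in LSC GFP- replicates 1, 2 and 3. The difference was -0.38 (SE 0.50, interval -1.52 to 0.77, adjusted p = 0.996). The 5′ probe, for which the design lists both Ly6c1 and its near-identical neighbour Ly6c2, did not follow it. It read 0.72, -0.17 and 0.28 in LSC GFP+ and 0.89, 0.13 and 0.18 in LSC GFP- replicates 1, 2 and 3, with a difference of -0.13 (SE 0.31, interval -0.84 to 0.59). Across the 6 arrays, r between both Ly6c1 probes was -0.526.

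The Ly6c1 3′ probe was the gene most like Ly6a, with r 0.9994 over 6 arrays, although the starts of the probes are 49.9 kb apart. Next came 9030619P08Rik, a transcript named only by its clone (0.9975), and Fcgbp, a mucin-like protein (0.996). For 9030619P08Rik the levels were -1.70, -0.90 and -0.12 in LSC GFP+ and -1.10, -0.65 and -0.08 in LSC GFP- replicates 1, 2 and 3, in the same order as Ly6a on all 6 arrays. The arrays share a slide and a scan, samples of equal number tended to deviate together, and only 6 points enter each r. Of all genes, 4.27% had r over 0.9 with Ly6a.

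9030619P08Rik belongs to the same stretch of chromosome 15. It and the tested genes of the wider Ly6 family there, 14 besides Ly6a, were compared with Ly6a, a choice made after the values were known. Other genes of the stretch were not compared. Of the 14, 5 had r over 0.9, namely Ly6c1, 9030619P08Rik, Ly6f (0.985), Lypd2 (0.976) and Ly6g (0.961). As 9030619P08Rik was added with its r already known, its place among these 5 adds nothing. Ly6f and Ly6g lie, with 9030619P08Rik, on the Ly6c1 side of Ly6a, and Lypd2 lies next to Slurp1 near Psca. Those with r under 0 were Ly6i (-0.258), Slurp1 (-0.598) and Gpihbp1 (-0.603). Of the genes compared, Ly6i is the nearest to Ly6a on its other side. Ly6g, named for the granulocyte antigen, had a difference of -0.25 between the populations (adjusted p = 0.996).

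**Figure D3:**
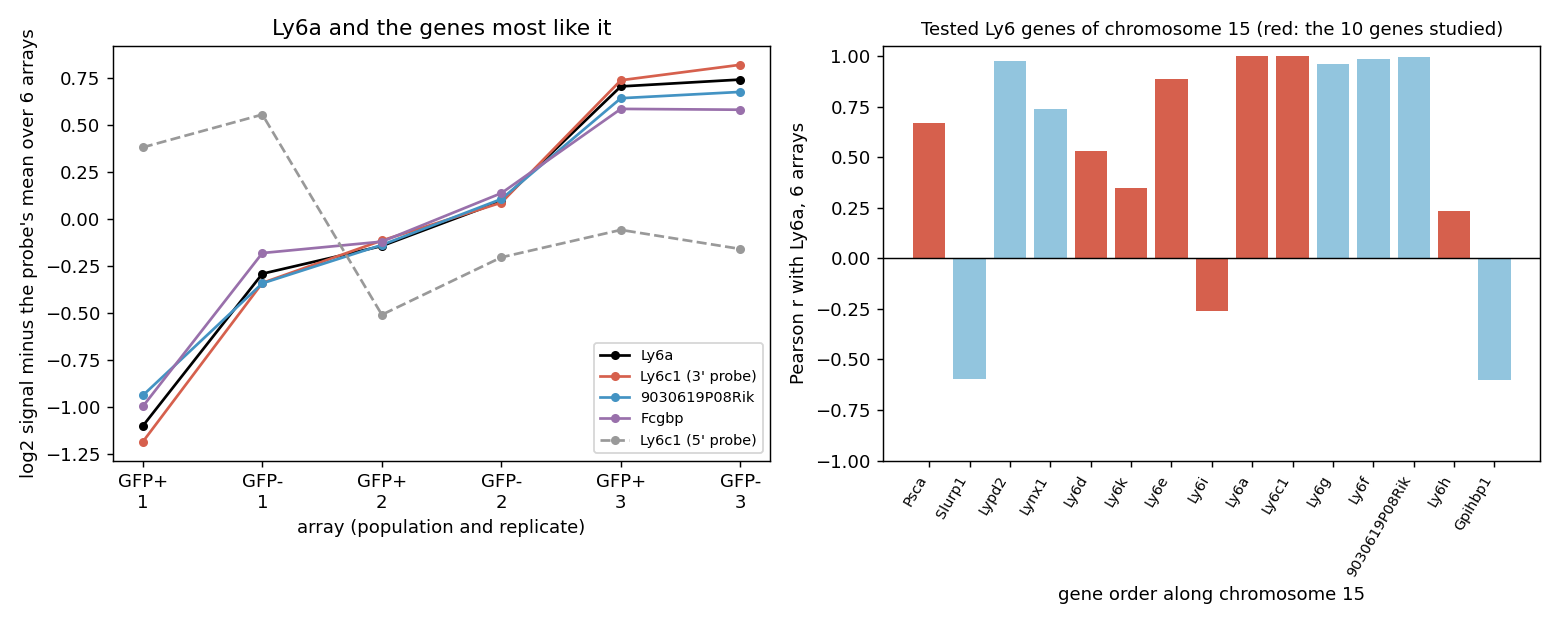
Left, log2 level of Ly6a, its 3 most similar genes and the Ly6c1 5′ probe on each array, minus the mean of the probe over 6 arrays. Right, Pearson r with Ly6a over 6 arrays for the tested genes of the wider Ly6 family and 9030619P08Rik, in their order along chromosome 15. Ly6c1 (3′ probe), 9030619P08Rik and Fcgbp follow Ly6a from LSC GFP+ replicate 1 to LSC GFP- replicate 3, while Ly6i, Slurp1 and Gpihbp1 have r under 0.

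Ly6a varied more between samples of a population than most genes. Its pooled standard deviation within populations was 0.738 log2 units, against a median of 0.305 over all genes, and 5.15% of genes had one at or above it. Replicate 3 was the highest in both populations for Ly6a, Ly6c1, Ly6e, Ly6k and Psca, 5 of the 10 genes, as it was for 29.7% of all genes. These descriptions, too, were chosen after the values were known.

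Psca encodes prostate stem cell antigen, a GPI-anchored protein of prostate, bladder and stomach epithelium. Its levels were 4.61, 5.21 and 6.29 in LSC GFP+ and 4.67, 4.51 and 5.25 in LSC GFP- replicates 1, 2 and 3. Replicate pair 1 was at -0.05, and pairs 2 and 3 were at 0.70 and 1.04 in favour of LSC GFP+ cells. Its difference of 0.56 (SE 0.42, interval -0.41 to 1.54, adjusted p = 0.93) did not pass the test. It passed without LSC GFP+ replicate 1 (0.94), and it was 0.10 without LSC GFP+ replicate 3. Psca had r of 0.886 with Ly6k, 0.844 with Ly6e and 0.843 with Lypd3.

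Lypd3, known as C4.4A, is a surface protein of stratified squamous epithelium. Its levels were -2.30, -1.96 and -0.97 in LSC GFP+ and -2.19, -1.95 and -2.26 in LSC GFP- replicates 1, 2 and 3. LSC GFP+ replicate 3 alone stood above the other 5 samples, and the pair difference was 1.29 there, against -0.10 in pair 1. The difference over all samples was 0.39 (SE 0.34, interval -0.39 to 1.18, adjusted p = 0.968). Ly6d, which marks stratified epithelium and early B lymphoid cells, had levels from -2.08 to -1.53 in LSC GFP+ and from -1.98 to -1.54 in LSC GFP- samples, with a difference of -0.11 (SE 0.23, interval -0.65 to 0.42, adjusted p = 0.996).

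Ly6e, an interferon-induced gene with roles in virus entry and placental cell fusion, had levels of 5.99, 6.56 and 6.86 in LSC GFP+ and 6.04, 6.34 and 6.73 in LSC GFP- replicates 1, 2 and 3. Both populations covered the same range, and the difference was 0.10 (SE 0.29, interval -0.57 to 0.77, adjusted p = 0.996). Its r with Ly6a was 0.885. Ly6g6c, from the major histocompatibility region, ran from -2.38 to -1.30 in LSC GFP+ and from -1.90 to -1.63 in LSC GFP- samples, a difference of -0.17 (SE 0.29, interval -0.85 to 0.50). Ly6i, a close relative of Ly6a, ran from -2.95 to -2.48 in LSC GFP+ and from -2.72 to -2.21 in LSC GFP- samples, a difference of -0.19 (SE 0.23, interval -0.73 to 0.35). The direction of Ly6g6c turned without LSC GFP+ replicate 2 (0.061), and that of Ly6e with quantile normalization (-0.015).

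The wider family, in which the same domain also occurs in receptors and in regulators of complement and of Wnt signalling, was listed as 34 genes. Of these, 33 were on the array and 28 were tested. Besides the 10 genes above, 18 were tested, of which 1 was higher and 3 were lower in LSC GFP+ cells, against 3.38% higher and 4.29% lower of all genes, and their median difference was -0.23, against -0.01 over all genes. Lypd6 and Lypd6b, adjacent relatives of which Lypd6 is known to enhance Wnt receptor activity, were both lower. Lypd6 had levels of -1.61, -1.46 and -1.04 in LSC GFP+ and -0.28, -0.04 and 0.15 in LSC GFP- replicates 1, 2 and 3. The groups did not overlap, and the difference was -1.31 (SE 0.23, adjusted p = 0.117) at the brightest probe. The other Lypd6 probe, with a difference of -1.12, did not pass.

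Lypd6b had levels of -0.39, 0.06 and 0.99 in LSC GFP+ and 1.28, 1.51 and 1.88 in LSC GFP- samples, a difference of -1.34 (SE 0.36, adjusted p = 0.289). Lypd6 and Lypd6b passed under every alternative that was run. Cd59a, an inhibitor of the complement membrane attack complex, was lower by a difference of -1.09 (SE 0.37, adjusted p = 0.442), with overlapping groups. It did not pass by the methods' t-test or when replicate 1 of LSC GFP+ cells (-0.78) or replicate 2 (-0.98) or 3 (-0.86) of LSC GFP- cells was left out. Plaur, the urokinase receptor, was 1.97-fold higher in LSC GFP+ cells (difference 0.98, SE 0.27, adjusted p = 0.304), without overlap. With background correction by normexp the Plaur difference was 0.28 and did not pass.

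Most surface proteins of the family are held by the GPI anchor, whose synthesis and attachment were covered by 25 tested genes. Of these 25 genes 1 passed, where 7.67% of all genes passed, so the count does not set the list apart. It was Pigw, which adds an acyl chain to the anchor precursor, at 0.72 higher in LSC GFP+ cells (SE 0.24, adjusted p = 0.428). The median of the list was -0.0026. Pigw did not pass with normexp (0.33), without LSC GFP+ replicate 2 (0.59) or without LSC GFP- replicate 3 (0.56). Piga, which starts anchor synthesis, was at 0.20 (adjusted p = 0.984). With the replicate number as a block 2 of the 25 passed, where 14.2% of all genes did. The other one was Pgap1, an anchor-remodelling enzyme, at -0.44.

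Ly6a and Ly6e are known interferon targets, and 29 interferon response genes were listed, of which 19 were tested. The list includes the receptor subunits Ifnar1, Ifnar2, Ifngr1 and Ifngr2, which sense interferon. None was higher and 2 were lower in LSC GFP+ cells, where 4.29% of all genes were lower and 7.67% passed in either direction. They were Bst2, the antiviral protein tetherin (difference -0.89, SE 0.32, adjusted p = 0.481), and Ifngr1, a subunit of the interferon gamma receptor (-0.54, SE 0.21, adjusted p = 0.546). The difference was negative for 15 of the 19, and the median was -0.26, against -0.01 over all genes. Isg15 did not pass at its brightest probe (-0.22), while its other tested probe (-0.60) did. Neither Bst2 nor Ifngr1 passed with scaling by the median, at -0.82 and -0.47. Bst2 did not pass by the methods' t-test, which passed Isg15 instead, or when replicate 1 (-0.76) or 2 (-0.77) of LSC GFP+ cells or replicate 1 (-0.87) or 3 (-0.66) of LSC GFP- cells was left out, and Ifngr1 did not when replicate 1 (-0.46) or 3 (-0.52) of LSC GFP+ cells or replicate 2 (-0.48) or 3 (-0.47) of LSC GFP- cells was.

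With the replicate number as a block, 9 of the 19 interferon response genes passed, 8 lower and 1 higher, where 14.2% of all genes passed. The 8 include B2m, the light chain of class I histocompatibility molecules (difference -0.79), and Psmb9, an immunoproteasome subunit (-0.82). B2m had levels of 3.02, 3.92 and 4.71 in LSC GFP+ and 4.09, 4.76 and 5.18 in LSC GFP- replicates 1, 2 and 3, higher in LSC GFP- cells within each pair, and it ranked the 3 pairs as Ly6a did. The summed level of the 19 genes, receptor subunits included, was 31.2, 44.5 and 61.8 in LSC GFP+ and 43.4, 57.2 and 75.6 in LSC GFP- replicates 1, 2 and 3. B2m and Ifngr2 had the largest parts in each sum, so it mainly gives the level of these genes. Ifngr2 went the other way, with a difference of 0.42.

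The median r of these 19 genes with Ly6a was 0.665. Of the 19, 4 (21.1%) had r over 0.9 with Ly6a, against 4.27% of all genes, namely Ifnar2, a subunit of the type I interferon receptor (0.997), B2m (0.945), Psmb8 (0.922) and Psmb9 (0.916). No probe of Gbp2, Gbp3, Ifi44, Ifit1, Ifit3, Mx1, Mx2, Oas2, Oasl2 or Usp18 reached the filter for testing, so the counts leave these genes out. The part of an interferon response in the level of Ly6a was not tested.

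**Figure D4:**
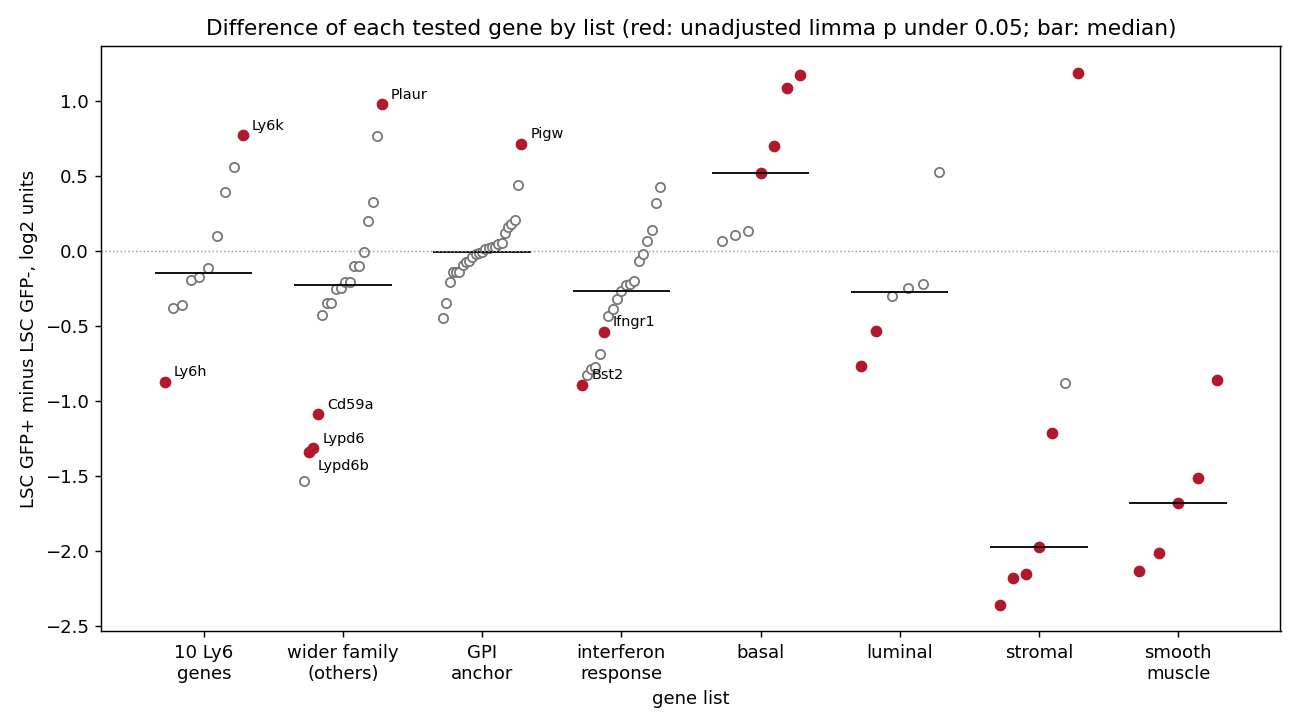
Difference between LSC GFP+ and LSC GFP- cells (log2 units) of each tested gene by list, in rising order within a list; filled red points passed at an unadjusted limma p under 0.05 and bars are list medians. Ly6k and Ly6h passed among the 10 Ly6 genes, Plaur, Cd59a, Lypd6 and Lypd6b among their relatives, and 5 of 5 smooth muscle markers were lower.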

How the data were processed

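RNA from 3 LSC GFP+ and 3 LSC GFP- samples was hybridised to one-colour SurePrint G3 Mouse arrays of 1 slide, read in 1 scan. The deposited intensity values were made by the authors with Feature Extraction 11.0.1.1 per the file headers (the submitters' processing notes name 10.7.3.1), and the processed signal, with background subtracted and no normalization between arrays, was used. The authors' value table of the whole series holds the same signals rounded (largest difference 0.496%) and was tried as an alternative. The array design places its probes on mm9.

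From each signal's log2 value the 75th percentile of its array was subtracted. Outlier spots (123 to 154 per array) were left out and spots of a probe averaged. A probe entered the test if every array of either population had it well above background (36994 probes). Populations were then compared in limma 3.58.1 (lmFit and eBayes, R 4.3.3) by a two-sided test, with Benjamini-Hochberg adjustment over all tested probes. A single probe, from no Ly6 gene, had an adjusted p under 0.05. Arrays had 36644 to 42102 probes well above background, no saturated spot, and correlations of 0.963 to 0.979 with each other. With 3 against 3 an exact permutation p cannot go under 0.1. The test was checked on simulated data.

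Genes were called at an unadjusted p under 0.05. The study's methods name Student's t-test at that threshold and state neither pairing nor an adjustment, and the methods' t-test, run unpaired, was an alternative. The members and gene lists were chosen with earlier results of these data known. Named are all members, list genes that passed, and the 3 genes most correlated with Ly6a, Ly6k and Ly6h among genes with a standard deviation of at least 0.5; others named were chosen after their values were seen. Gene symbols were updated by RefSeq accession through a table of GRCm38.p6, used for names only (26582 probes matched).

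Replicate numbers come from the sample labels. The paper does not state that equal numbers share a sort. Correlations of deviations from the population means between samples of equal number were 0.432, 0.276 and 0.668. Between unequal numbers they were 0.224 for LSC GFP+ replicate 1 with LSC GFP- replicate 2, and otherwise -0.547 to -0.0931. Differences within pairs were therefore taken between equal numbers. The main fit, which gave the calls, SE, intervals and adjusted p-values, was unpaired and left the number out. A fit with the number as a block was an alternative. The other alternatives were normexp background correction (offset 50), quantile normalization, scaling by the median, the series table, 3 other filters on dim probes, an intensity trend, outlier spots kept, averaging a gene's probes, and each array left out in turn.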

Additional observations from a re-analysis of the deposited data

How the results depend on the processing

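Of the 10 Ly6 genes, 2 passed; the count was 1 with scaling by the median, 0 by the methods' t-test and 0 to 2 with 1 array left out (0 without LSC GFP- replicate 1). Of the 28 tested genes of the wider family, members included, 6 passed, 3 by the methods' t-test and 4 to 6 with 1 array left out. For the GPI anchor genes the count of 1 became 0 with normexp, 2 with the replicate block and 0 to 3 with 1 array left out (3 without LSC GFP+ replicate 3, 0 without LSC GFP- replicate 3). For the interferon response genes the count of 2 became 0 with scaling by the median, 9 with the replicate block and 1 to 5 with 1 array left out (5 without LSC GFP+ replicate 3, 2 without LSC GFP- replicate 1, 1 without any of the other 4 arrays). The causes were not tested. The replicate block changed the call of no Ly6 member and added Pate4 in the wider family (-1.53). Over all genes 1963 passed, 865 higher and 1098 lower; scaling by the median gave 982 higher and 837 lower and moved the median difference to 0.06, the methods' t-test 1113 and 808, and the replicate block 3643 in all.

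Directions turned only for differences that had not passed. With 1 array left out, Ly6a ranged from -0.80 to 0.099 and Ly6c1, 3′ probe, from -0.84 to 0.12, both above 0 without LSC GFP+ replicate 1. The Ly6c1 5′ probe ranged from -0.35 to 0.12, at 0.12 without LSC GFP- replicate 1 and 0.098 without LSC GFP+ replicate 2. Ly6e ranged from -0.094 to 0.34, with -0.062 and -0.094 without LSC GFP- replicate 1 and LSC GFP+ replicate 3, and was at -0.015 with quantile normalization. Ly6g6c ranged from -0.48 to 0.061, above 0 without LSC GFP+ replicate 2. Ly6k (0.54 to 0.96) and Ly6h (-1.20 to -0.61) kept their direction in all 17 alternatives; Ly6k fell short of the threshold in 4 and Ly6h in 6.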
